A study of Homo sapiens with 12 samples.

Results

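The HOX genes encode homeodomain transcription factors that give cells their position along the axis of the body, and 38 of them were followed here across 2 clear cell renal cell carcinoma (ccRCC) cell lines and the sunitinib-resistant lines derived from them. They were picked by gene symbol with a rule that uses no measured value, though earlier results of these data were known. They are 38 of the 45478 genes of the count table. The HOXA cluster on chromosome 7 holds 10 of them and HOXB on chromosome 17 holds 10. HOXC on chromosome 12 and HOXD on chromosome 2 hold 9 each. In vertebrates the genes of a cluster lie in the order in which they are used along the body, so that low paralog numbers mark the head end and high numbers the tail end, and genes of the same number in different clusters are close relatives. Cells keep a HOX pattern of their origin through life, maintained by Polycomb and Trithorax proteins, and HOX proteins bind DNA together with PBX and MEIS homeodomain partners. In the embryonic kidney the genes of paralog group 11 act with EYA1 and PAX2 to switch on SIX2 and GDNF, through which the ureteric bud is induced.

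mRNA was sequenced from 4 groups of 3 replicate libraries. A498 and 786-O are established human ccRCC lines and were left unexposed. Resistant A498 and resistant 786-O were obtained from them by raising sunitinib, an inhibitor of VEGF receptors and other receptor tyrosine kinases, until growth was stable at 2 µM in resistant A498 and 4 µM in resistant 786-O, over 4 months or more than 20 passages, with drug present throughout selection. Each resistant line is a single named line, the replicates are not stated to be separate cultures, and the p-values therefore measure the spread between these libraries, which may be technical. The labels give the treatment of all 12 samples as none, while the sample titles carry a code veh that they do not explain.

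Total counts ran from 20042519 to 47972092 per library (median 37898338), so that 1 count was worth 0.0204 to 0.0478 CPM (counts scaled to the normalized size of the library). Each group had a batch label of its own, so batch and group cannot be told apart. Of 12 renal and ccRCC markers, 9 were at 1 CPM or more in every library, including PAX8, whereas EMX2 and NDUFA4L2 were under 1 CPM throughout and CA9 reached at most 1.56 CPM. All 13 T cell markers were under 1 CPM, the highest at 0.547. The libraries labelled resistant A498 stood closer to 786-O and resistant 786-O than to A498: over the 19894 tested genes outside the HOX group, their log2 CPM correlated at a median of 0.870 with A498 libraries, 0.951 with those of 786-O and 0.982 with those of resistant 786-O. Whether these libraries came from the line their label names was not tested, and a change in resistant A498 stands here only for the difference of the libraries so labelled from those labelled A498. The log2 difference of resistant A498 from 786-O is therefore given beside each HOX gene called in resistant A498. Counts could not be assigned to a strand with certainty. In 409 pairs, at least 80% of the exon bases of a long non-coding RNA lay inside exons of an opposite-strand coding gene. Only coding genes with at least 1000 counts over all libraries were taken. Counts per base of the non-coding RNA were a median 1.58 times those of the coding gene. A HOX gene and its antisense partner therefore cannot be told apart over shared bases.

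Of the 5 genes of paralog groups 11 to 13 with a RefSeq window, the 4 that changed beyond 2-fold in a resistant line are shown by the 250 bases that precede their RefSeq start on GRCh38.p14, read 5′ to 3′ on the strand of the gene, with CpG dinucleotides in capitals because Polycomb-bound HOX promoters are known for dense CpG. The position of HOXA11 is chr7:27185233-27185482 (minus strand), that of HOXA13 chr7:27200092-27200341 (minus strand), that of HOXD12 chr2:176099545-176099794 (plus strand) and that of HOXD13 chr2:176092471-176092720 (plus strand).
HOXA11: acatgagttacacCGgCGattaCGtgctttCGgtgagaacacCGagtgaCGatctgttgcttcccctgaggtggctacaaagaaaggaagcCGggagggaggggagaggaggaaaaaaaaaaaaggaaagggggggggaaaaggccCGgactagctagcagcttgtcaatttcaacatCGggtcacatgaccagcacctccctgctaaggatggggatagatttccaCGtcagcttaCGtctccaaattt
HOXA13: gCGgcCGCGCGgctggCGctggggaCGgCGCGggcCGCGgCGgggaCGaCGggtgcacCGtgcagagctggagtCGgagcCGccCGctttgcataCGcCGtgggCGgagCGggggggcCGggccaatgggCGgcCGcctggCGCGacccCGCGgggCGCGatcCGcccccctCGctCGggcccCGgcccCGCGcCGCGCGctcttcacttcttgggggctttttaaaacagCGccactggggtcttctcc
HOXD12: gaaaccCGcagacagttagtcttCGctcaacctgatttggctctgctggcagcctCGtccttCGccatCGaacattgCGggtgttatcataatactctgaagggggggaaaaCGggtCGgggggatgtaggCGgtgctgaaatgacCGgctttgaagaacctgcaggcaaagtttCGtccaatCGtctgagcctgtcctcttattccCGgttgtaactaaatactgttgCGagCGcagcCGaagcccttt
HOXD13: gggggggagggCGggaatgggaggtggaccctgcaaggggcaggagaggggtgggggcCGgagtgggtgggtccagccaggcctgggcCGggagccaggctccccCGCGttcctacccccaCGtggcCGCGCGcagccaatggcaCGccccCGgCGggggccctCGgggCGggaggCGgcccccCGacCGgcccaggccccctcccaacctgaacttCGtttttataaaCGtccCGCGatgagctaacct
In windows of 300 bases, from 250 before to 50 after the start, HOXA13 held 14.7 CpG per 100 bases, HOXD13 8.0, HOXD12 6.33 and HOXA11 4.33. RefSeq windows were matched for 20 of the 38 genes, in 27 windows. Their median was 7.33 CpG per 100 bases, against 4.67 over all 35116 windows of the table. Several of the 27 windows are alternative starts of HOXA3, and HOXC4 and HOXC5 have the same window, counted for each. HOXC has only that window and HOXB only that of HOXB1, so the clusters are not evenly represented. The letters TTTATG, which CDX factors bind, stood on either strand in 3 of the 27 windows (11.1%, against 10.6% of all windows), and TGATTNAT, a HOX-PBX site, in 2 (7.41%, against 2.82%). AGGTCA, the core hexamer of retinoic acid response elements, was in none of the 27, against 13.8% of all windows, and its direct repeat with 5 bases between the copies was likewise in none, against 0.00570% of all windows. These 4 searches describe letters only, and every match of the repeat is also a match of the hexamer.

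Most HOX genes were transcribed in every group. With 1 CPM in every library of a group taken as expressed, 31 of the 38 genes were expressed in A498, 31 in resistant A498, 28 in 786-O and 30 in resistant 786-O. HOXB was the most uniform cluster, with an unbroken run from HOXB2 to HOXB9 in all 4 groups and neither end gene, HOXB1 or HOXB13, expressed. The clusters differed between groups at their high-numbered ends. HOXA ran from HOXA2 to HOXA11 in A498 and 786-O (HOXA6 excepted in 786-O) and on to HOXA13 in both resistant lines. The step to HOXA13 depends on the limit, since HOXA13 was at 0.754 to 0.983 CPM in 786-O and 1.88 to 2.30 CPM in resistant A498. At 0.5 CPM it would count as expressed in 786-O, and at 2 CPM not in resistant A498. Per kilobase of exon its mean was only 0.419 CPM in resistant A498 and 0.516 CPM in resistant 786-O. HOXC ran from HOXC4 to HOXC13 in A498 and resistant A498, and stopped at HOXC10 in 786-O and resistant 786-O, with HOXC5, HOXC11 and HOXC12 unexpressed everywhere. HOXD ran from HOXD1 to HOXD11 in all groups, and A498 alone added HOXD13, with HOXD12 at 0.795 CPM ± 0.0654 (SD, n = 3) just under the limit. HOXB1 had no count in any of the 12 libraries, HOXC5 no more than 5 in any, and HOXC12 no more than 2. These 3 genes were too low to be tested, which left 35.

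**Figure D1:**
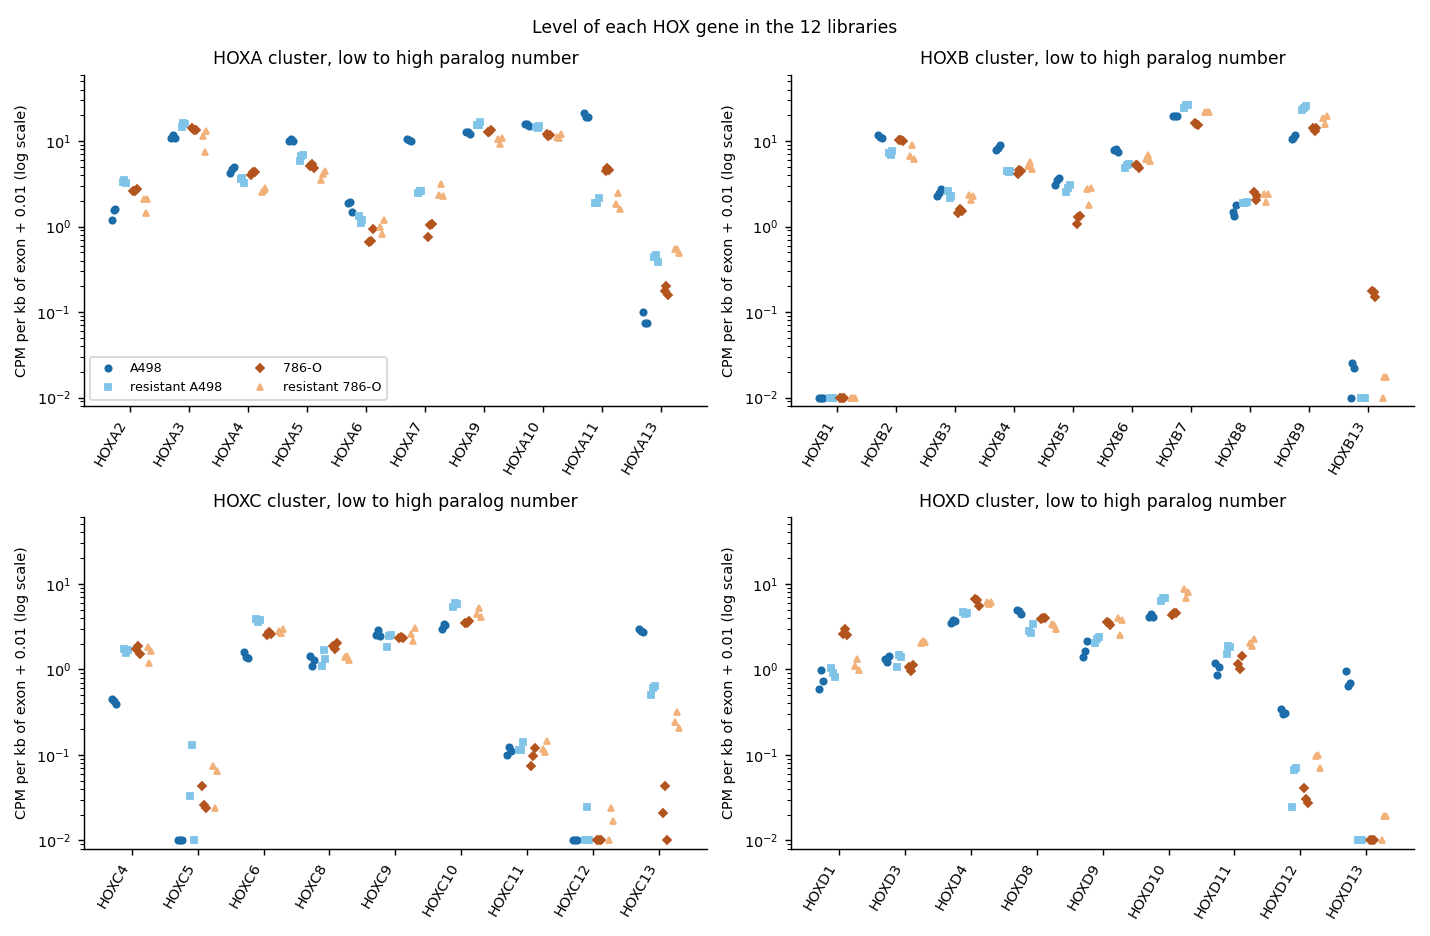
Level of each HOX gene in the 12 libraries, in CPM per kilobase of exon plus 0.01 on a log axis, with the genes of each cluster in order of paralog number. Each point is 1 library. Most middle genes lie between about 1 and 26. Levels fall at HOXA13, HOXB13, HOXC5, HOXC11 to HOXC13 and HOXD12 to HOXD13. Among these, HOXC5, HOXC11 and HOXC12 do not separate the groups, whereas the middle gene HOXA7 sets A498 and 786-O apart.

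Levels of different genes are compared per kilobase of exon. In A498 the highest were HOXA11 (19.8 CPM per kilobase), HOXB7 (19.7) and HOXA10 (15.6), of which HOXA11 and HOXB7 differed by less than the spread of the HOXA11 libraries. HOXB7 led the other groups, at 25.7 in resistant A498, 15.8 in 786-O and 21.8 in resistant 786-O, followed by HOXB9 at 24.5, 13.8 and 18.0. HOXA11, the leading gene of A498, was at 1.98 in resistant A498, 4.62 in 786-O and 1.97 in resistant 786-O. Summed over clusters, HOXA gave 254 CPM ± 6.51 in A498, 209 ± 6.33 in resistant A498, 181 ± 1.07 in 786-O and 151 ± 16.5 in resistant 786-O (SD, n = 3). HOXB gave 152 ± 3.71, 170 ± 5.87, 126 ± 1.79 and 151 ± 1.59 CPM in the same order. HOXC summed to 28.2 to 39.9 CPM and HOXD to 41.3 to 55.7 CPM over the group means.

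The parental lines had different HOX patterns. Between 786-O and A498, 26 of the 35 genes tested differed, 11 higher and 15 lower in 786-O, against a background of 74.2% of the 19929 genes tested (38.2% higher and 36.1% lower) by the quasi-likelihood test of edgeR, Benjamini-Hochberg adjusted over all of them (adjusted p under 0.05). The HOX share was 74.3%, close to that background. Beyond 2-fold (log2 fold change over 1) there were 13, against 31.9% of all genes. HOXA7 (log2 fold change -3.45 ± 0.14, SE), HOXA11 (-2.10 ± 0.11), HOXC13, HOXD12 and HOXD13 were lower in 786-O. HOXC4 (2.01 ± 0.18), HOXD1 (1.86 ± 0.18), HOXA13 (1.15 ± 0.23) and HOXB13 were higher there. At the limit of 1 CPM, HOXA6, HOXC13 and HOXD13 were expressed in A498 and not in 786-O. No HOX gene was expressed in 786-O and not in A498 at that limit.

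The resistant lines, each read against the parental line of its label, differed in a like share of HOX genes as of all genes. In resistant A498, 24 of 35 were called against A498, 12 higher and 12 lower (68.6%, against 72.7% of all genes tested, 36.3% higher and 36.4% lower), with a median log2 fold change of -0.03 (all genes -0.00). In resistant 786-O, 25 of 35 were called against 786-O, 14 higher and 11 lower (71.4%, against 68.5% of all genes, 35.0% higher and 33.5% lower), with a median of 0.14 (all genes 0.03). Beyond 2-fold there were 10 in resistant A498, against 30.8% of all genes, and 8 in resistant 786-O, against 22.0%. With scaling by library size alone, which moved the median of all genes in resistant 786-O to 0.18, the split in resistant 786-O was 16 higher and 8 lower. By paralog group, the size of change was greatest at the tail end: the median absolute log2 fold change of the 8 tested genes of groups 11 to 13 was 2.64 in resistant A498 and 1.68 in resistant 786-O, against 0.38 and 0.35 for the 7 genes of groups 9 and 10, 0.57 and 0.32 for the 14 genes of groups 4 to 8, and 0.39 and 0.52 for the 6 genes of groups 1 to 3. In each comparison 5 of the 8 genes of groups 11 to 13 were called beyond 2-fold. These include genes at or near 0 in a group, whose fitted changes depend on the prior count.

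**Figure D2:**
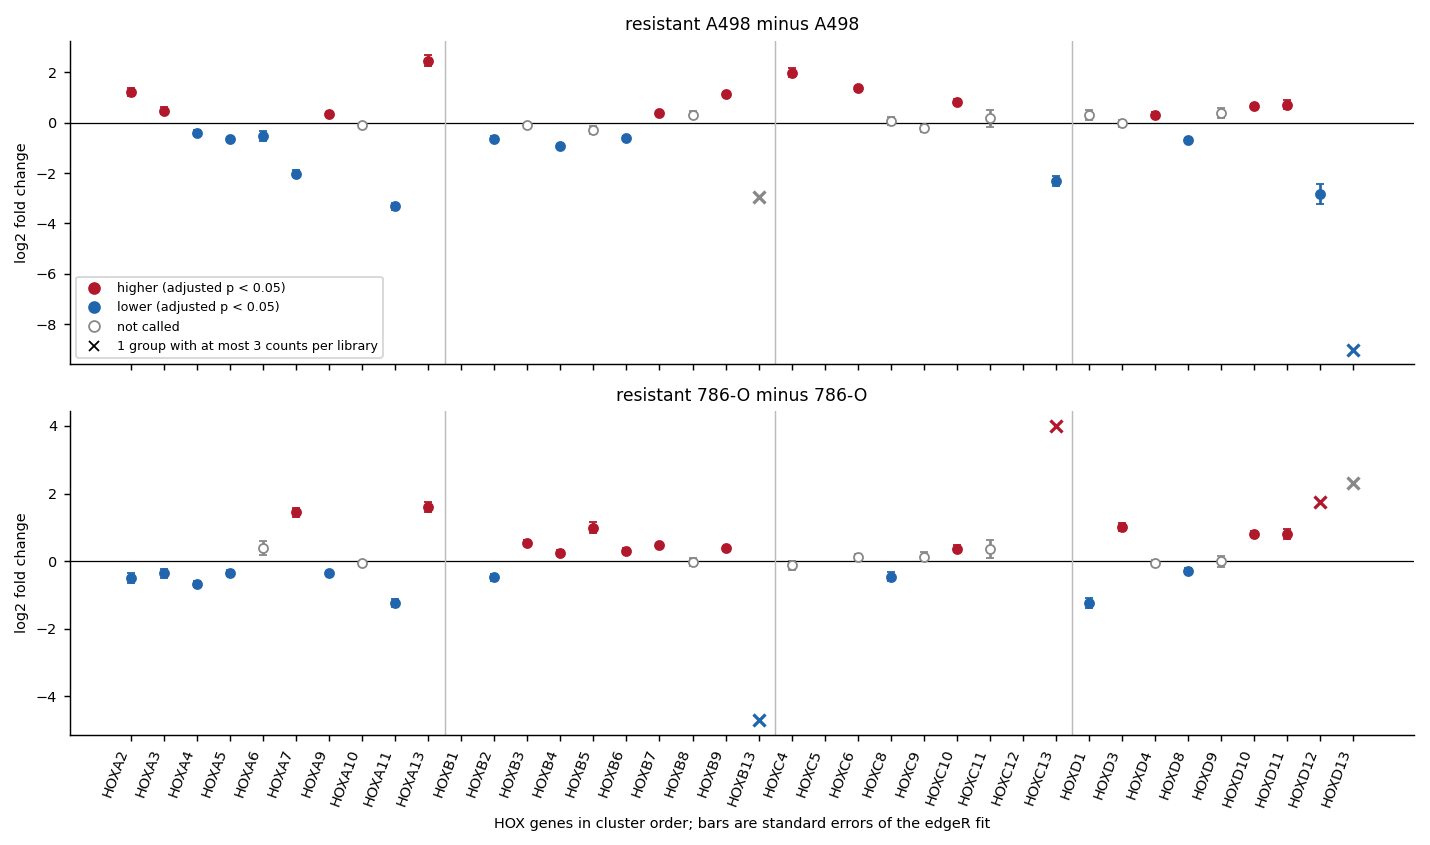
Log2 fold change of each tested HOX gene in resistant A498 against A498 (top) and in resistant 786-O against 786-O (bottom), in cluster order, with standard errors of the edgeR fit as bars. Filled points passed an adjusted p of 0.05, open points did not, and crosses, drawn without bars, mark genes with at most 3 counts per library in one of the groups. HOXB1, HOXC5 and HOXC12 were not tested. HOXA11 is lower and HOXA13 higher in both panels, while HOXA7, HOXC13 and HOXD12 lie below 0 at the top and above 0 at the bottom.

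HOXA11 and HOXA13, neighbours at the tail end of HOXA, moved in opposite directions in both resistant lines. HOXA11 (chr7:27181157-27185232, GRCh38, minus strand), a gene of kidney and limb patterning, was at 56.3, 51.4 and 51.0 CPM in A498 and at 5.07, 4.98 and 5.79 CPM in resistant A498. It was at 11.9, 13 and 12.2 CPM in 786-O and at 4.86, 6.64 and 4.24 CPM in resistant 786-O. Neither pair of groups overlapped, and the libraries of both resistant lines lay in the same low range. HOXA11 fell by 3.32 ± 0.13 (log2, SE) in resistant A498 (adjusted p = 4.28e-12, quasi-likelihood test of edgeR, Benjamini-Hochberg adjusted) and by 1.24 ± 0.12 in resistant 786-O (adjusted p = 3.41e-07). The resistant A498 libraries were also below 786-O, by a log2 difference of -1.22 ± 0.13. Less RNA per cell and fewer cells that carry it cannot be told apart in bulk libraries. The antisense transcript HOXA11-AS shares 726 bases with HOXA11 (27.2% of its exon bases), fell with it in resistant A498 (log2 fold change -3.28 ± 0.17) and did not pass the test in resistant 786-O (-0.33 ± 0.17, adjusted p = 0.0932).

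HOXA13, whose loss causes hand-foot-genital syndrome, was at 0.463, 0.325 and 0.331 CPM in A498 and at 2.20, 2.30 and 1.88 CPM in resistant A498. In 786-O it was at 0.842, 0.983 and 0.754 CPM and in resistant 786-O at 2.70, 2.70 and 2.45 CPM. Both resistant lines were above both parental lines in every library, though at a low level for a gene with 5071 bases of exon. HOXA13 rose by 2.46 ± 0.21 (log2, SE) in resistant A498 (adjusted p = 5.29e-08) and by 1.61 ± 0.16 in resistant 786-O (adjusted p = 3.23e-07), and resistant A498 exceeded 786-O by 1.30 ± 0.17. HOTTIP, the non-coding RNA that lies beside HOXA13, also rose in both lines, by 2.39 ± 0.76 and 1.62 ± 0.46, from counts near 0, and HOTTIP in resistant A498 did not pass against 786-O (1.02 ± 0.57, adjusted p = 0.130). HOTTIP fell outside the rule for named transcripts, and HOXA3, HOXA13, HOXB13, HOXC4 and HOXD12 fell outside the rule for genes given by library, and all 6 were added after their values were seen.

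HOXC13 (chr12:53938831-53946544, plus strand), which controls keratin genes of hair and nail, converged from both sides. It was at 6.98, 6.60 and 6.36 CPM in A498 and at 1.16, 1.39 and 1.49 CPM in resistant A498. In 786-O it had 1, 3 and 0 counts and in resistant 786-O 0.551, 0.733 and 0.459 CPM. HOXC13 fell by 2.31 ± 0.19 (log2, SE) in resistant A498 (adjusted p = 4.11e-08) and was higher in resistant 786-O (adjusted p = 2.42e-06), where summed counts of 80 against 4 gave a ratio of 17.6 (95% interval 6.61 to 66.2). Such intervals cover counting error only. Against 786-O, the resistant A498 libraries were 40.7 times higher (15.4 to 152), the reverse of their difference from A498. HOXC11 was at 0.283 to 0.368 CPM over the group means and did not pass the test in either line.

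The HOXD end genes separated A498 from the rest. HOXD13 (chr2:176092721-176095944, plus strand), mutated in synpolydactyly, had 79, 33 and 45 counts in A498, or 2.29, 1.53 and 1.66 CPM. It had no count in any library of resistant A498 or 786-O, and 0, 1 and 1 in resistant 786-O. With 3 counts per library as the floor, A498 was at least 15.4-fold higher than resistant A498 (adjusted p = 6.11e-07) and at least 25.5-fold higher than 786-O. HOXD12, its neighbour, had 30, 16 and 21 counts in A498, 1, 3 and 4 in resistant A498, 3, 2 and 2 in 786-O and 11, 10 and 7 in resistant 786-O. It fell by 2.83 ± 0.39 (log2, SE) in resistant A498 (adjusted p = 9.51e-06) and was called higher in resistant 786-O (adjusted p = 0.00357), where 28 against 7 counts gave a ratio of 3.52 (1.5 to 9.55). In the resistant A498 libraries HOXD12 did not pass the test against 786-O (adjusted p = 0.274). HOXD11, one gene further in, rose in both lines, by 0.72 ± 0.17 and 0.79 ± 0.15. It was 0.53 ± 0.16 higher in resistant A498 than in 786-O. HOXD11 shares 21.4% of its exon bases with HOXD10 on the same strand, and HOXD10 shares 18.2% with HOXD11. Reads over these bases cannot be told apart with certainty.

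HOXB13, a prostate gene separated from the rest of its cluster, was the only member found mainly in 786-O. It had 19 counts in each 786-O library, 0, 1 and 1 in A498, none in resistant A498 and 0, 1 and 1 in resistant 786-O. The 786-O libraries were 32.4 times higher than resistant 786-O (57 against 2 counts, 95% interval 8.56 to 274, adjusted p = 7.10e-06) and at least 3.81-fold higher than resistant A498. The change against A498 was not called (adjusted p = 0.141), with at most 1 count in any library of those groups.

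**Figure D3:**
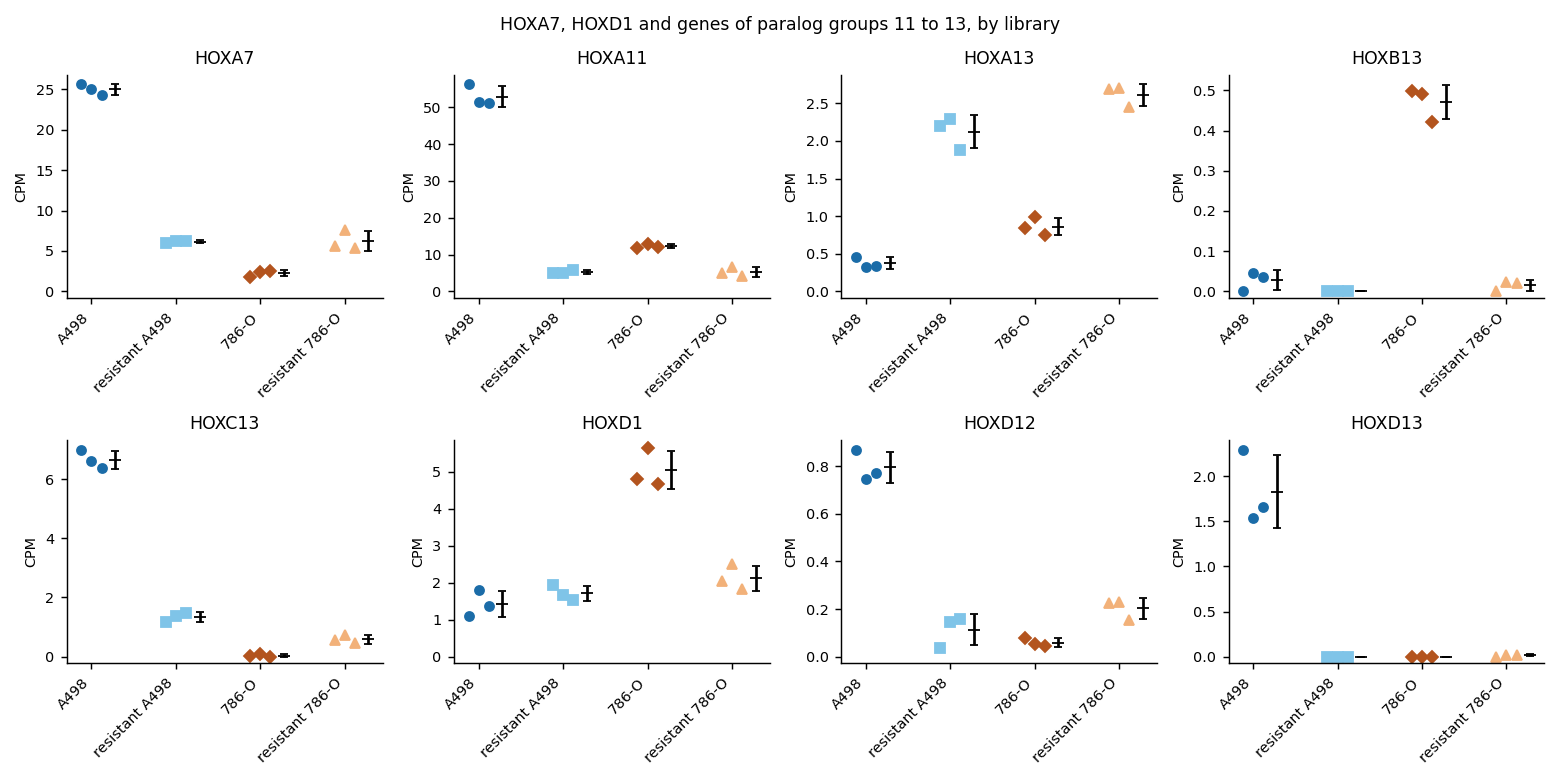
CPM of HOXA7, HOXD1 and 6 genes of paralog groups 11 to 13 in the 12 libraries on linear axes. Points are libraries, and the bar beside each group is the mean with 1 SD (n = 3). HOXA7 is highest in A498 and lowest in 786-O with both resistant lines between them, HOXB13 counts are in 786-O and HOXD13 counts are in A498.

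Among the middle genes, HOXA7 (chr7:27153716-27157936, minus strand), which patterns the trunk, changed most. Its libraries were at 25.7, 25.0 and 24.4 CPM in A498, 6.0, 6.22 and 6.26 CPM in resistant A498, 1.81, 2.46 and 2.55 CPM in 786-O and 5.68, 7.63 and 5.42 CPM in resistant 786-O. The resistant lines overlapped each other and lay between the parental lines, neither of which they overlapped. HOXA7 fell by 2.02 ± 0.13 (log2, SE) in resistant A498 (adjusted p = 1.31e-09) and rose by 1.45 ± 0.14 in resistant 786-O (adjusted p = 3.20e-07), and resistant A498 was above 786-O by 1.43 ± 0.15. HOXA-AS3, which shares 1507 bases with HOXA7 (62.5% of its exon bases), changed by -1.48 ± 0.10 and 1.14 ± 0.11. HOXA6, the gene next to it, was at 2.40, 2.46 and 1.91 CPM in A498, 1.71, 1.39 and 1.53 CPM in resistant A498, 0.842, 0.854 and 1.20 CPM in 786-O and 1.25, 1.03 and 1.53 CPM in resistant 786-O. Its decrease in resistant A498 (log2 fold change -0.54 ± 0.20, adjusted p = 0.0248) was lost without A498 replicate 1 or 2 or resistant A498 replicate 2 or 3, at -0.44 to -0.50, and in resistant 786-O it did not pass (0.39 ± 0.20, adjusted p = 0.101). Resistant A498 exceeded 786-O in HOXA6 by 0.67 ± 0.21.

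HOXC4 and HOXC6, at the head end of HOXC, rose in resistant A498 and not in resistant 786-O. HOXC4 was at 1.22, 1.16 and 1.07 CPM in A498, 4.81, 4.31 and 4.62 CPM in resistant A498, 4.73, 5.12 and 4.13 CPM in 786-O and 5.00, 3.30 and 4.46 CPM in resistant 786-O. A498 stood alone, with the other 3 groups overlapping. HOXC4 rose by 1.99 ± 0.18 (log2, SE) in resistant A498 (adjusted p = 1.18e-07) and its difference from 786-O there was -0.02 ± 0.15 (adjusted p = 0.915). HOXC6 was at 5.53, 4.79 and 4.71 CPM in A498, 13.4, 12.5 and 13.1 CPM in resistant A498, 8.60, 9.44 and 8.96 CPM in 786-O and 9.74, 9.30 and 10.3 CPM in resistant 786-O. It rose by 1.37 ± 0.09 in resistant A498 (adjusted p = 2.47e-09), which also exceeded 786-O by 0.53 ± 0.08, and in resistant 786-O it did not pass (0.12 ± 0.08, adjusted p = 0.199). HOXC4 shares 17.5% and HOXC6 16.1% of exon bases with other genes on the same strand, where reads cannot be told apart with certainty.

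The HOXB genes of groups 4 to 7 moved in opposite directions in the lines or only upward in resistant 786-O. HOXB4, a regulator of blood stem cells, fell by 0.92 ± 0.09 (log2, SE) in resistant A498 and rose by 0.25 ± 0.09 in resistant 786-O, the latter lost without 786-O replicate 1 (0.20). HOXB6 fell by 0.59 ± 0.08 and rose by 0.30 ± 0.08. HOXB5 did not pass in resistant A498 (-0.29 ± 0.16) and rose by 0.99 ± 0.16 in resistant 786-O. Both HOXB4 and HOXB6 in resistant A498 were level with 786-O, with log2 differences of 0.01 ± 0.09 and 0.01 ± 0.08. HOXB7 was the exception of the group, with increases of 0.38 ± 0.05 in resistant A498 and 0.47 ± 0.05 in resistant 786-O. Of the other genes of groups 4 to 8, HOXA4 (-0.39 and -0.67), HOXA5 (-0.66 and -0.35) and HOXD8 (-0.69 and -0.30) fell in both lines, HOXD4 rose by 0.32 in resistant A498, HOXC8 fell by 0.46 in resistant 786-O and HOXB8 was called in neither. Against 786-O, resistant A498 was higher in HOXB5 (log2 difference 1.19), HOXB7 (0.70) and HOXA5 (0.34) and lower in HOXD4 (-0.45), HOXD8 (-0.42) and HOXA4 (-0.27). For HOXA5 and HOXD4 these are the reverse of the differences from A498. HOXA4 shares 31.3% of exon bases with another gene on the same strand, and HOXB6 shares 16.6% with HOXB3. Reads over these bases cannot be told apart with certainty. The change in resistant 786-O of HOXA5 was -0.22 without resistant 786-O replicate 1, and with library size alone both it (-0.20) and that of HOXD8 (-0.16) were no longer called.

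Of the 7 genes of groups 9 and 10, HOXB9 alone changed beyond 2-fold, in resistant A498. HOXB9, which patterns the rib-bearing trunk, was at 27.5, 27.8 and 30.7 CPM in A498, 59.7, 63.8 and 66.7 CPM in resistant A498, 36.8, 34.3 and 36.3 CPM in 786-O and 47.8, 41.5 and 50.4 CPM in resistant 786-O. Each resistant line lay above its parental line in every library. HOXB9 rose by 1.14 ± 0.07 (log2, SE) in resistant A498 (adjusted p = 2.29e-09) and by 0.38 ± 0.07 in resistant 786-O (adjusted p = 0.000253), and resistant A498 exceeded 786-O by 0.83 ± 0.07. HOXC10 (0.83 ± 0.10 and 0.37 ± 0.10) and HOXD10 (0.67 ± 0.09 and 0.82 ± 0.09), which pattern the lumbar cord and hindlimb, rose in both lines as well. HOXA9, known as a driver of acute myeloid leukaemia, rose by 0.33 ± 0.06 in resistant A498 and fell by 0.35 ± 0.06 in resistant 786-O. These 3 genes were also higher in resistant A498 than in 786-O, by 0.68 ± 0.10 for HOXC10, 0.56 ± 0.09 for HOXD10 and 0.28 ± 0.06 for HOXA9. HOXA10, HOXC9 and HOXD9 passed the test in neither line.

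At the head end, HOXA2, HOXD1 and HOXD3 changed beyond 2-fold, each in a single line. HOXA2, the selector gene of the second pharyngeal arch, was at 2.78, 3.63 and 3.72 CPM in A498 and 7.79, 8.13 and 7.43 CPM in resistant A498. It was at 6.08, 6.03 and 6.41 CPM in 786-O and 4.88, 3.30 and 4.94 CPM in resistant 786-O. HOXA2 rose by 1.22 ± 0.15 (log2, SE) in resistant A498 (adjusted p = 4.18e-06), which exceeded 786-O by 0.33 ± 0.14, and fell by 0.49 ± 0.14 in resistant 786-O. HOXD1, of which 60.1% of exon bases lie opposite exons of other-strand genes, was at 4.81, 5.64 and 4.68 CPM in 786-O and 2.04, 2.50 and 1.84 CPM in resistant 786-O. It fell by 1.25 ± 0.15 in resistant 786-O (adjusted p = 3.99e-06). The resistant 786-O libraries stayed above those of A498 (1.10, 1.81 and 1.36 CPM) and overlapped those of resistant A498 (1.94, 1.67 and 1.53 CPM). A498 and resistant A498 did not pass against each other (adjusted p = 0.203). HOXD3, which shapes the first vertebrae with HOXA3, was at 3.92, 3.47 and 4.15 CPM in 786-O and 7.50, 7.95 and 7.78 CPM in resistant 786-O, and rose by 1.01 ± 0.12 (adjusted p = 1.89e-06). In A498 it was at 4.86, 4.42 and 5.22 CPM and in resistant A498 at 3.88, 5.41 and 5.09 CPM, with no call between them (-0.03 ± 0.13).

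HOXA3, HOXB2 and HOXB3 completed the head end. HOXA3, needed for thymus and parathyroid, was at 47.3, 51.3 and 47.2 CPM in A498 and 63.0, 70.2 and 68.2 CPM in resistant A498, and rose by 0.47 ± 0.14 there. In 786-O it was at 60.9, 58.8 and 57.4 CPM and in resistant 786-O at 49.5, 32.2 and 56.6 CPM. The second resistant 786-O library stood apart, and the decrease of 0.36 ± 0.14 in resistant 786-O (adjusted p = 0.0296) became -0.16 without it. It was no longer called with library size alone (-0.21), with only these 2 groups in the fit (-0.32), or without 786-O replicate 1 or 2. In resistant A498 HOXA3 did not pass against 786-O (0.19 ± 0.14, adjusted p = 0.250). HOXB2 fell by 0.63 ± 0.11 and 0.48 ± 0.11 in the respective lines and was lower in resistant A498 than in 786-O (-0.48 ± 0.11), and HOXB3 rose by 0.54 ± 0.09 in resistant 786-O only among the calls, with -0.09 ± 0.09 in resistant A498.

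Set side by side, the calls of the 35 genes gave every combination of directions. Higher in both resistant lines were 6 genes (HOXA13, HOXB7, HOXB9, HOXC10, HOXD10 and HOXD11), and lower in both were 5 (HOXA4, HOXA5, HOXA11, HOXB2 and HOXD8). In opposite directions were 8, of which HOXA2, HOXA3 and HOXA9 were higher in resistant A498 and lower in resistant 786-O and HOXA7, HOXB4, HOXB6, HOXC13 and HOXD12 the reverse. Called in resistant A498 alone were 5, in resistant 786-O alone 6, and in neither 5. Over all genes tested, 72.7% were called in resistant A498 and 68.5% in resistant 786-O. The share of all genes in each combination was not computed, so these counts cannot be read as particular to HOX genes. The difference between the 2 changes, tested as an interaction, was called for 23 of 35 genes, 11 with the more positive change in resistant A498 and 12 with the more negative, against 68.3% of all genes tested (33.9% and 34.4%).

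Because the resistant A498 libraries resembled the 786-O lines, their HOX levels were also read against both. Over the 35 genes log2(CPM + 0.1) in these libraries correlated at a median of 0.822 with A498 libraries, 0.913 with those of 786-O and 0.982 with those of resistant 786-O, while A498 and 786-O gave 0.735. The points share library depth and any ranking of levels common to these lines, so these values are descriptive. The mean level in resistant A498 was nearest to resistant 786-O for 19 genes, to 786-O for 11 and to A498 for 5. Against 786-O, 26 of the 35 genes were called in resistant A498, 17 higher and 9 lower (63.6% of all genes tested, 31.6% higher and 32.1% lower), and 7 beyond 2-fold (20.0% of all genes). Against resistant 786-O, 17 were called, 11 higher and 6 lower (46.1% of all genes, 23.0% in each direction), and 1 beyond 2-fold (7.30% of all genes). That gene was HOXC13, with a log2 difference of 1.20 ± 0.24 (adjusted p = 0.000992). Of the 13 HOX genes that separated 786-O from A498 beyond 2-fold, resistant A498 was nearer to 786-O than to A498 for 7. Of the others, HOXA6, HOXB5, HOXB13 and HOXC13 were nearest to resistant 786-O, and HOXD1 and HOXD9 to A498.

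**Figure D4:**
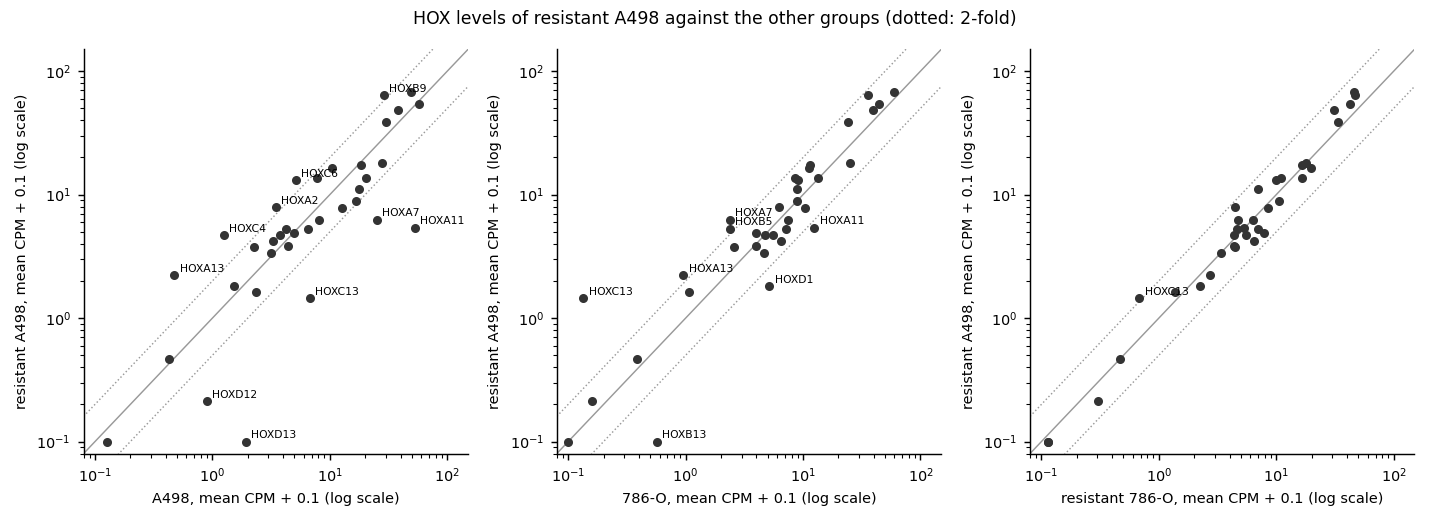
Mean CPM plus 0.1 of each tested HOX gene in resistant A498 (vertical, log axis) against A498, 786-O and resistant 786-O (horizontal, log axes), with dotted lines at 2-fold. Named points lie beyond 2-fold, and there are 10 of them against A498, 7 against 786-O and 1 against resistant 786-O.

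The non-coding transcripts of the clusters followed their neighbours in part. Among 17 tested, resistant A498 had 4 called higher and 7 lower, and resistant 786-O had 9 higher and 2 lower (64.7% called in each, against 72.7% and 68.5% of all genes), with medians of 0.03 and 0.39 (all genes -0.00 and 0.03). HAGLR, beside HOXD1, was at 34.5 CPM ± 0.929 in 786-O and 23.9 ± 0.789 in resistant 786-O (SD, n = 3; log2 fold change -0.53 ± 0.05), and did not pass in resistant A498 (0.03 ± 0.06). Genes that flank the clusters without belonging to them gave 7 higher and 9 lower of 21 in resistant A498 and 8 higher and 9 lower in resistant 786-O (76.2% and 81.0% called, against 72.7% and 68.5% of all genes), with medians of -0.10 and -0.12. SKAP1, beyond HOXB1, rose by 2.67 ± 0.25 and fell by 1.79 ± 0.12. CHN1 (chr2:174798809-175005381), on the chromosome of HOXD but not adjacent to it, rose by 1.67 ± 0.13 and 0.47 ± 0.11. CALCOCO1, near HOXC, rose by 1.28 ± 0.07 in resistant 786-O and did not pass in resistant A498 (-0.13 ± 0.07). Against 786-O, resistant A498 was lower in SKAP1 (-2.53 ± 0.14) and higher in CHN1 (0.61 ± 0.11) and CALCOCO1 (1.16 ± 0.07).

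Of the PBX, MEIS and PKNOX partners, 1 rose and 5 fell among 8 tested in resistant A498, and 2 rose and 4 fell in resistant 786-O (medians -0.26 and -0.19). In each line 6 of the 8 were called, against 72.7% and 68.5% of all genes. PBX3 rose from 24.0 ± 1.18 to 114 ± 5.64 CPM in resistant A498 (log2 fold change 2.25 ± 0.06) and fell from 124 ± 1.10 to 71.0 ± 3.36 in resistant 786-O (-0.81 ± 0.05). MEIS3 fell from 20.0 ± 0.344 to 2.83 ± 0.263 CPM in resistant A498 (-2.83 ± 0.12) and rose from 0.0804 ± 0.0293 to 4.19 ± 0.698 in resistant 786-O (5.61 ± 0.23). For both genes the resistant A498 level lay nearer to 786-O or resistant 786-O than to A498.

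The Polycomb and Trithorax genes that hold HOX patterns gave 13 higher and 8 lower of 26 in resistant A498 and 10 higher and 9 lower in resistant 786-O (80.8% and 73.1% called, against 72.7% and 68.5% of all genes), with medians of 0.18 and 0.03. CBX2 (-1.58 ± 0.07 and 0.50 ± 0.06), a Polycomb reader of the histone mark, moved down in resistant A498 and up in resistant 786-O, and BMI1, a partner in the same complex, moved up (1.33 ± 0.09) and down (-1.61 ± 0.08). Against 786-O, resistant A498 was higher in CBX2 (0.20 ± 0.07) and lower in BMI1 (-0.54 ± 0.08). Retinoic acid is a known inducer of HOX genes. Of its pathway 12 genes were tested, and resistant A498 had 2 higher and 8 lower (median -1.35) and resistant 786-O 7 higher and 0 lower (median 0.74). Called were 83.3% and 58.3%, against 72.7% of all genes (36.4% lower) and 68.5% (35.0% higher). CYP26B1, which degrades retinoic acid, was at 36.2 CPM ± 1.02 in A498 and 0.243 ± 0.0630 in resistant A498 (-7.18 ± 0.15), against 0.0585 ± 0.0415 in 786-O. The receptor RARB fell from 16.2 ± 2.11 to 0.671 ± 0.0730 CPM (-4.59 ± 0.20) in resistant A498. The retinol transporter STRA6 changed by -4.57 ± 0.23 in resistant A498 and 2.06 ± 0.41 in resistant 786-O. Against 786-O, resistant A498 was higher in RARB (2.15 ± 0.38) and STRA6 (1.99 ± 0.46). CYP26B1 and RARB did not pass in resistant 786-O.

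Genes that act with paralog group 11 in the embryonic kidney gave 2 higher and 4 lower of 6 tested in resistant A498 and 2 higher and 2 lower in resistant 786-O, against 72.7% and 68.5% of all genes called in either direction, with medians of -1.53 and 0.30. WT1, needed for nephron formation, was at 0, 0.0930 and 0.0368 CPM in A498, 13.8, 13.7 and 14.3 CPM in resistant A498, 27.8, 28.1 and 27.0 CPM in 786-O and 9.99, 10.6 and 10.1 CPM in resistant 786-O. At no more than 2 counts per library in A498, WT1 was present in every library of the other 3 groups. OSR1, an early kidney gene, fell by 2.70 ± 0.21 (log2, SE) in resistant A498 and rose by 1.03 ± 0.28 in resistant 786-O. PAX2 rose in both, by 0.71 ± 0.14 and 0.81 ± 0.13. Against 786-O, resistant A498 was higher in OSR1 (1.29 ± 0.30) and PAX2 (0.70 ± 0.14). SIX2 had 109, 73 and 104 counts in A498, none in resistant A498 or resistant 786-O and 1, 0 and 0 in 786-O, and was called lower in resistant A498 (adjusted p = 4.01e-08). EYA1 had 28, 9 and 14 counts in A498, 1, 2 and 4 in resistant A498, 0, 1 and 1 in 786-O and 3, 2 and 3 in resistant 786-O, and fell by 2.61 ± 0.48 in resistant A498 (adjusted p = 0.000166). Neither passed in resistant 786-O, and both were below the limit of 5 CPM for named genes and were added after their values were seen.

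**Figure D5:**
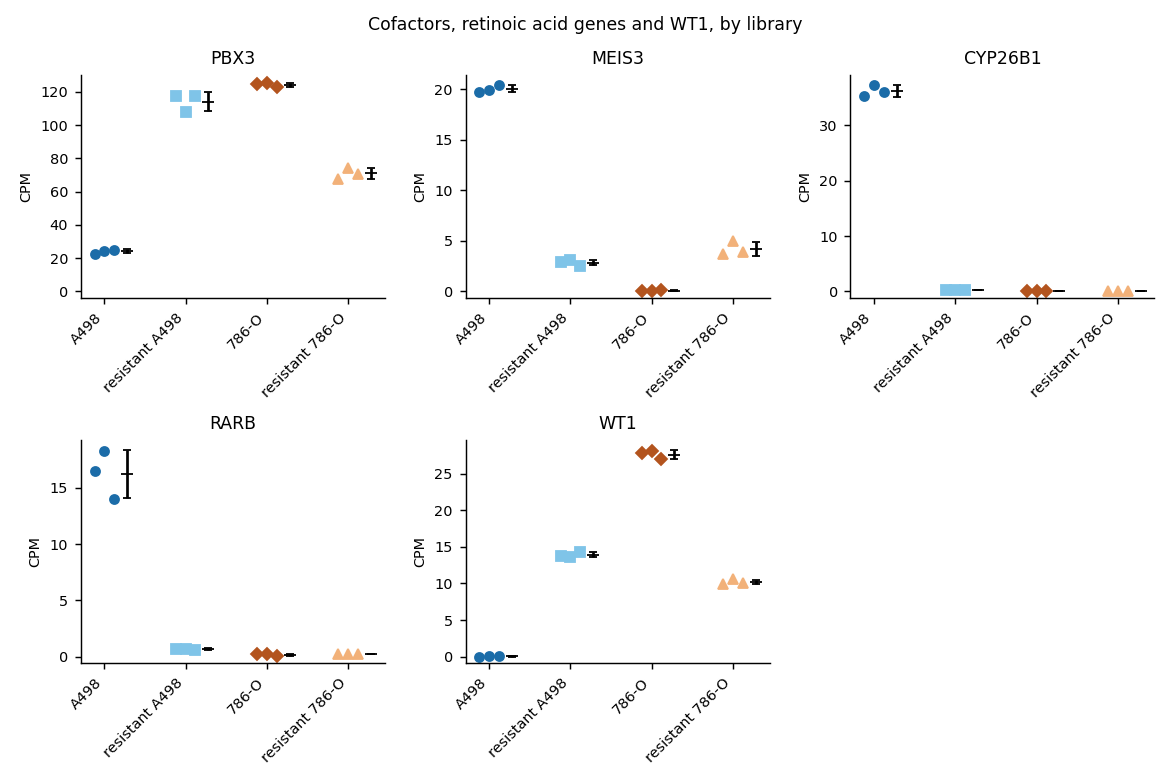
CPM of the HOX partners PBX3 and MEIS3, the retinoic acid genes CYP26B1 and RARB, and WT1 in the 12 libraries, on linear axes. Points are libraries and bars the mean with 1 SD (n = 3). A498 stands apart in every panel, high for MEIS3, CYP26B1 and RARB and low for PBX3 and WT1.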

How the data were processed

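Stranded mRNA libraries of 12 cell line samples in 4 groups were used as raw gene counts. The authors trimmed reads (Trimmomatic 0.36.6), aligned them to GRCh38 (HISAT2 2.1.0) and counted exon reads per GENCODE gene (featureCounts 1.6.3), and deposited these counts without normalization. Versions are from the submitters' processing notes. Counts of 45478 genes were filtered with filterByExpr (19929 left), scaled by TMM and fitted in a single edgeR 4.0.16 quasi-likelihood model with 4 group means (R 4.3.3). P-values were adjusted by Benjamini-Hochberg over the 19929 genes, with a threshold of 0.05, and the prior count was 0.125. HOX members and partner lists were chosen with earlier results of these data known. Values by library are given for members at 5 CPM or more in a group that were called beyond 2-fold in a resistant line, or expressed in 1 parental line only. From each partner list the 3 largest changes were named, apart from those not reported here. Folds against groups at 0 use a floor of 3 counts per library, and other ratios of few counts have exact binomial 95% intervals. Exon lengths came from GENCODE 44 on the same assembly, and sequences from RefSeq. In simulated data for resistant A498 against A498, 158 of 200 genes changed 2-fold were recovered among 19292, with 8 false calls. Only these 200 genes differed in the simulation, whereas 72.7% of genes were called in the real comparison, so its rates may not hold there. The alternatives were library size alone, DESeq2 1.42.0 size factors and Wald test, other filters, only the 2 groups compared, a replicate block, thinning, each library left out, other limits of expression, and the test of the study.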

Additional observations from a re-analysis of the deposited data

Results flagged for a closer look

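For 23 HOX genes the change in resistant A498 differed from that in resistant 786-O by a test of the difference itself (interaction in edgeR's quasi-likelihood model, Benjamini-Hochberg adjusted p under 0.05, against 68.3% of all genes tested). Positive log2 differences (resistant A498 change minus resistant 786-O change) were found for HOXC4 (2.12), HOXA2 (1.71), HOXD1 (1.55), HOXC6 (1.25), HOXA13 (0.85), HOXA3 (0.82), HOXB9 (0.76), HOXA9 (0.68), HOXC8 (0.53), HOXC10 (0.46) and HOXD4 (0.36). Negative ones were found for HOXA7 (-3.47), HOXA11 (-2.09), HOXB5 (-1.28), HOXB4 (-1.17), HOXD3 (-1.03), HOXA6 (-0.93), HOXB6 (-0.89), HOXB3 (-0.63) and HOXD8 (-0.38). For HOXC13 (-6.31), HOXD12 (-4.58) and HOXD13 (-11.34), groups with at most 4 counts per library set the size, which depends on the prior count. HOXA13, HOXB9 and HOXC10 rose in both lines and HOXA11 and HOXD8 fell in both, so that for these 5 the difference is one of size.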

How the results depend on the processing

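Single genes were followed through the alternatives only in the 2 comparisons of a resistant line with its parental line. There, no HOX gene reversed direction among the calls under any alternative run. With a log2 fold change beyond 1 required, calls went to 10 in resistant A498 against A498, 8 in resistant 786-O against 786-O, 12 for the difference of the changes, 13 for 786-O against A498, 7 for resistant A498 against 786-O and 1 for resistant A498 against resistant 786-O. The study's test on raw counts called 11 in resistant A498 and 16 in resistant 786-O. With each library left out in turn, calls were 23 to 27, 23 to 26, 21 to 26, 24 to 28, 22 to 28 and 14 to 20 in that order of comparisons, and the counts of expressed genes stayed at 31, 31, 28 and 30. Replicate numbers did not pair the libraries: deviations of same-numbered libraries correlated at -0.09 to 0.04, and 0 of 18 pairs exceeded 0.1. With the replicate number as a block, 25, 25, 23, 26, 24 and 17 genes were called. Other limits of expression gave 32, 31, 30 and 30 genes (0.5 CPM) and 26, 27, 26 and 28 (2 CPM) in A498, resistant A498, 786-O and resistant 786-O. Over all alternatives in the 2 comparisons of a resistant line with its parental line, 66 changes of single genes lost their call and 19 gained one. A further 1443 stayed on their side of the threshold, called or not. Depth limits HOXB13, HOXC13, HOXD12 and HOXD13, for which a group had few counts or none, since 3 counts correspond to 0.0612 CPM in the largest library and 0.143 in the smallest.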
